A study of Homo sapiens with 12 samples.

Results

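The genes described here are 53 listed human genes known to be switched on by type I interferon, followed through RNA sequencing of MDA-MB-468, an established basal-like breast cancer cell line. They were taken by symbol from the raw counts per gene. All 53 were found among 56832 genes, and 52 were among the 14549 genes with enough counts for a test. EPSTI1, with 15 counts over all 12 libraries, was not tested.

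The libraries fall into 4 groups of 3. TRB T3 cells stably carried the vector pCDH-TRB, which expresses thyroid hormone receptor beta, and received the thyroid hormone T3 at 10 nM. TRB vehicle cells carried the same vector and received the solvent of the hormone (NaOH). EV T3 cells carried the empty vector pCDH-EV and received T3, and EV vehicle cells carried the empty vector and received the solvent. Every group was first kept for 24 hours without hormone, in medium free of phenol red with charcoal-stripped serum, and then treated for 24 hours. Separate cultures behind a group's 3 libraries are not stated in the sources used here, nor is whether each line is a pool or a clone. The vector and the line that carries it therefore cannot be told apart, and a p-value here reflects how far the libraries of a group scatter, which may be technical scatter only.

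Type I interferon binds the receptor pair IFNAR1 and IFNAR2, and the kinases JAK1 and TYK2 then activate the transcription factor complex ISGF3, which holds STAT2 and IRF9 and binds the interferon-stimulated response element in the promoters of its target genes. Many of the targets block viruses directly, others sense viral RNA, and others modify proteins with the ubiquitin-like protein ISG15. Epithelial tumour cells often keep part of this set expressed at a low level without added interferon. IRF1, a factor best known from the interferon gamma response, binds closely related promoter letters.

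The promoter letters shared by many members are shown first. RefSeq promoter windows of GRCh38.p14 (250 bases before to 50 after each start) were available for 44 of the 53 members. Where a gene had several windows, only the first listed was searched, for members and for all genes. The core of the response element, GAAA then any 2 bases then GAAA, searched on both strands with overlapping matches allowed, was present in 30 of the 44 windows (68.2%), against 996 of 27305 windows of all genes in the same table (3.65%). It was found in 18 of 24 windows (75%) of members lower in TRB cells at both treatments, and in 8 of 11 windows (72.7%) of members that T3 raised more in TRB cells than in EV cells. Without the members that are in both sets, the shares were 15 of 21 (71.4%) and 5 of 8 (62.5%). Among tested members in none of the subsets described below it was 6 of 9 (66.7%). A match is only a run of letters and is not a measured binding site, and its part in the differences below was not tested. The following 50-base stretches, printed 5′ to 3′ on the gene's own strand with every whole core in capitals, come from 4 members of the first kind (IFI6, IFI44L, BST2 and IFIT1), 3 of the second (ISG20, PARP14 and LGALS3BP) and 1 of both (IFIT3). These stretches were picked only from members with a core before the start. They lie at chr1:27672256-27672305 for IFI6 (minus strand), chr1:78620355-78620404 for IFI44L (plus), chr19:17405725-17405774 for BST2 (minus), chr10:89392500-89392549 for IFIT1 (plus), chr15:88638927-88638976 for ISG20 (plus), chr3:122680789-122680838 for PARP14 (plus), chr17:78979952-78980001 for LGALS3BP (minus) and chr10:89327855-89327904 for IFIT3 (plus).
IFI6: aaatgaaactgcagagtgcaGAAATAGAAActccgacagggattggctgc
IFI44L: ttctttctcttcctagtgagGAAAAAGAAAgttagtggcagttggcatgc
BST2: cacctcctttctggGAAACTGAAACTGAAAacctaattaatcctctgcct
IFIT1: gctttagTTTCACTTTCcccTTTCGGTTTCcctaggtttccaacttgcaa
ISG20: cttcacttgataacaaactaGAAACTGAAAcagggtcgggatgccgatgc
PARP14: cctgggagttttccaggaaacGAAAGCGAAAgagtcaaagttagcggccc
LGALS3BP: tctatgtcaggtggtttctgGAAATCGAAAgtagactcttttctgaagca
IFIT3: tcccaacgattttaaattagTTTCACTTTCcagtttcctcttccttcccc

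BST2 and ISG20, which went opposite ways between the lines with T3, carry the same 10 letters, GAAACTGAAA, which BST2 holds in 2 overlapping copies. In the stretches shown, the 2 cores of IFIT1 and the 1 of IFIT3 lie on the other strand and read as the reverse complement. The whole window of IFIT3 held 2 cores. OAS1 and CMPK2, which T3 lowered in TRB cells, and UBE2L6 and SAMD9L, which T3 raised there, held no such core in the window searched. PLSCR1 and SAMD9, also lowered by T3 there, each held 1. CMPK2 had 3 listed windows and UBE2L6 had 2, and their further windows were not searched. UBA7 and IFITM2, also raised by T3, were among the 9 members for which no window was used here.

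Gene totals ranged from 4241863 counts in EV vehicle replicate 1 to 11955825 in EV T3 replicate 3, and all 6 T3 libraries were deeper than all 6 vehicle libraries. The summed mitochondrial ribosomal RNA transcripts MT-RNR1 and MT-RNR2 lay at 580 to 918 CPM (counts scaled to library size) in TRB T3 libraries and 7050 to 18000 CPM in TRB vehicle libraries. They lay at 497 to 662 CPM in EV T3 libraries and 3230 to 27300 CPM in EV vehicle libraries. Both depth and these transcripts thus moved with the hormone, and the part of the transcripts in the results was not tested. With every library thinned to the smallest total, 28 members were called for T3 in TRB cells, against 32 at full depth, and 3 for T3 in EV cells, against 7. The T3 calls lost in this way are named beside their members. THRB, the gene of the receptor, stood at 311, 344 and 331 CPM in TRB T3 libraries and 144, 136 and 141 CPM in TRB vehicle libraries, against 39.9, 37.8 and 37.7 CPM in EV T3 libraries and 43.6, 42.6 and 44.2 CPM in EV vehicle libraries. It was higher in TRB cells at both treatments, as the labels say, and in TRB cells it was also higher with T3.

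The members showed 2 overlapping patterns. In TRB cells 26 were lower than in EV cells whether or not T3 was present. T3 raised 16 more strongly in TRB cells than in EV cells, and IFI44, IFIH1 and IFIT3 were in both sets. Tests used edgeR's quasi-likelihood test over all 14549 genes, with a Benjamini-Hochberg adjusted p below 0.05 as the threshold. Of the 52 members tested, 48 passed it in at least 1 of 5 comparisons, as 59% of all genes tested did, and DDX58, RTP4, TRIM21 and TRIM5 passed in none.

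With T3, 29 members were lower in TRB cells than in EV cells (55.8%, against 19.7% of all genes tested) and 4 were higher (21% of all genes). Their median log2 fold change of TRB over EV was -0.29 over the 52 members, against 0 over all genes. With vehicle, 38 were lower in TRB cells (73.1%, against 7.4% of all genes) and 0 were higher (7.86% of all genes), with a median of -0.46 over the members and a negative value for 50 of the 52. T3 raised 28 members in TRB cells (53.8%, against 22.4% of all genes) and lowered 4 (21.9% of all genes), with a median of 0.32. In EV cells T3 raised 7 (13.5%, against 2.84% of all genes) and lowered 0 (1.7% of all genes), where 4.54% of all genes were called in either direction; the median over the members was 0.17. The interaction, which tests whether the T3 effect differed between the lines, was positive for 16 members (12.3% of all genes) and negative for 3 (11.6% of all genes).

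**Figure D1:**
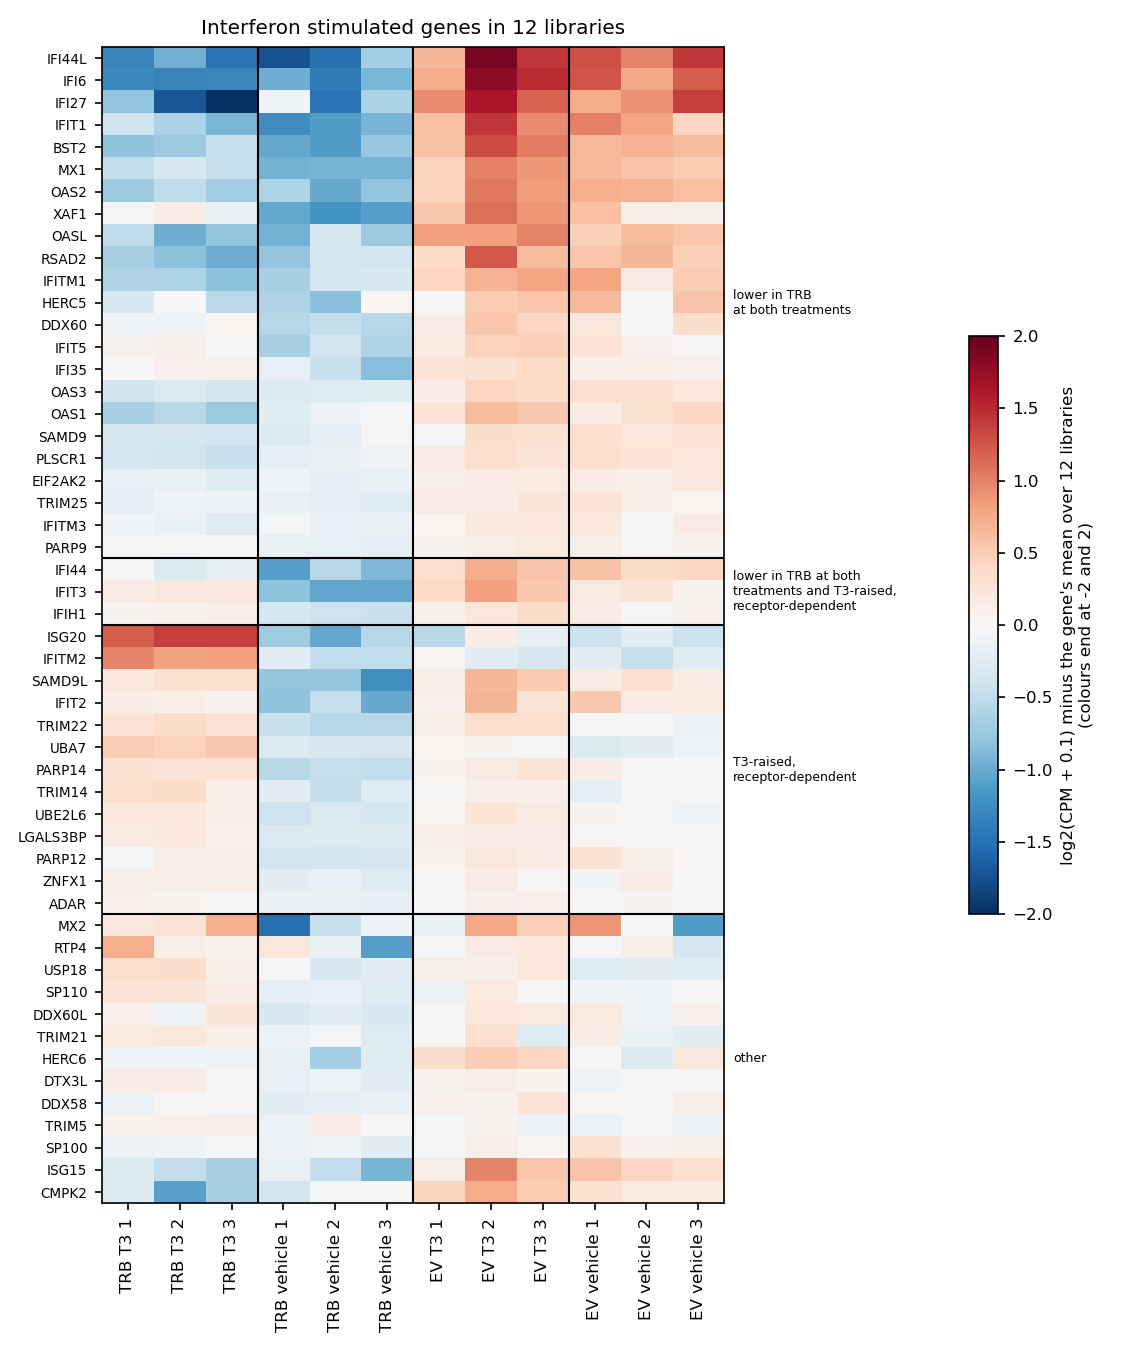
Each row is 1 of the 52 tested members and each column 1 of the 12 libraries; colour gives log2(CPM + 0.1) minus the gene's mean over the 12 libraries, cut off at -2 and 2. The upper 26 rows are the members lower in TRB cells at both treatments. On average they are paler or bluer in the TRB columns than in the EV columns of the same treatment. The rows of T3-raised members from ISG20 to ADAR are on average bluest in the TRB vehicle libraries, though ISG20, IFITM2 and UBA7 are set apart more by their high TRB T3 libraries. The label receptor-dependent marks a T3 effect called larger in TRB cells, and the part of the receptor was not tested.

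The 26 members lower in TRB cells at both treatments made up the subset that followed the line. The same pattern held for 3.37% of all genes tested, and 0 members were higher in TRB cells at both treatments (3.75% of all genes). The 2 comparisons behind this subset share no library. For 14 of the 26 no T3 effect in either line and no interaction passed the test: BST2, EIF2AK2, HERC5, IFI27, IFI44L, IFI6, IFIT1, IFITM1, IFITM3, OAS2, OAS3, OASL, RSAD2 and TRIM25. How many of all genes share this narrower pattern was not counted.

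IFI27, IFI6 and IFI44L, genes classically used to read out interferon exposure, showed the largest differences between the lines. IFI6 stood at 3.77, 3.68 and 3.75 CPM in TRB T3 libraries and 4.73, 3.47 and 4.92 CPM in TRB vehicle libraries, against 15.7, 32.7 and 26.5 CPM in EV T3 libraries and 22.6, 16.0 and 21.8 CPM in EV vehicle libraries. All 6 TRB libraries lay far below all 6 EV libraries, and T3 and vehicle libraries of the same line overlapped or lay close together. IFI6 was 6.72-fold lower in TRB cells with T3 (log2 fold change -2.75 ± 0.32 (SE), adjusted p = 0.000123) and 4.61-fold lower with vehicle (-2.20 ± 0.39, adjusted p = 0.00571).

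IFI44L stood at 2.14, 2.78 and 1.92 CPM in TRB T3 libraries and 1.58, 1.90 and 3.42 CPM in TRB vehicle libraries, against 8.77, 20.8 and 15 CPM in EV T3 libraries and 13.7, 11 and 15 CPM in EV vehicle libraries. The TRB and EV libraries again did not overlap. Its difference with vehicle, 5.84-fold (log2 -2.55 ± 0.49, adjusted p = 0.00793), was the most negative of any member at that treatment. IFI27 stood at 0.600, 0.269 and 0.175 CPM in TRB T3 libraries and 1.05, 0.336 and 0.683 CPM in TRB vehicle libraries, against 2.22, 3.65 and 2.65 CPM in EV T3 libraries and 1.93, 2.19 and 3.06 CPM in EV vehicle libraries. These are few counts (171 in all 12 libraries), so its estimate is loose. It was 7.89-fold lower in TRB cells with T3 (log2 -2.98 ± 0.37, adjusted p = 3.67e-10) and 3.65-fold lower with vehicle (-1.87 ± 0.41, adjusted p = 0.000536).

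The OAS family, whose members OAS1, OAS2 and OAS3 make the second messenger 2-5A that activates RNase L, was lower in TRB cells for 4 of 4 members at both treatments (19.7% of all genes with T3, 7.4% with vehicle). T3 raised 0 of the 4 in either line (22.4% of all genes in TRB cells, 2.84% in EV cells). OAS3 stood at 57.2, 61.8 and 58.3 CPM in TRB T3 libraries and 62.3, 63.2 and 63.7 CPM in TRB vehicle libraries, against 83.6, 102 and 98.6 CPM in EV T3 libraries and 94.3, 94.4 and 87.5 CPM in EV vehicle libraries. The lines did not overlap, and the difference had little spread behind it: log2 -0.69 ± 0.05 with T3 (adjusted p = 4.25e-17) and -0.54 ± 0.06 with vehicle (adjusted p = 8.31e-10). OAS2 differed more, 2.75-fold with T3 and 2.78-fold with vehicle, and OASL, a relative without the synthetase activity, stood at only 1.08 ± 0.195 CPM in TRB T3 libraries against 3.53 ± 0.249 CPM in EV T3 libraries (SD, n = 3 each). The OASL difference with vehicle missed the threshold at equal depth (log2 -0.91, adjusted p = 0.192). OAS1, OAS3 and OAS2 lie side by side on chromosome 12, from 112906777 to 113011723 in GRCh38, and OASL lies apart on the same chromosome.

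Among the membrane proteins, BST2 (tetherin, which holds budding virions at the cell surface), IFITM1 and IFITM3 (which hinder viral entry) were lower in TRB cells at both treatments. IFITM1 stood at 7.88, 7.81 and 6.81 CPM in TRB T3 libraries and 7.62, 9.41 and 9.70 CPM in TRB vehicle libraries, against 16.2, 19.5 and 20.8 CPM in EV T3 libraries and 20.9, 13.5 and 17.2 CPM in EV vehicle libraries. The lines were well separated, with log2 fold changes of -1.33 ± 0.12 with T3 (adjusted p = 3.07e-15) and -0.91 ± 0.14 with vehicle (adjusted p = 1.27e-06). BST2 averaged 10.7 ± 1.38 CPM in TRB T3 libraries against 33.9 ± 8.31 CPM in EV T3 libraries, and 8.66 ± 1.17 CPM in TRB vehicle libraries against 26.7 ± 0.606 CPM in EV vehicle libraries (SD, n = 3 each). IFITM3 differed by little, log2 -0.30 ± 0.06 with T3 and -0.23 ± 0.07 with vehicle. The second of these missed the threshold without TRB vehicle replicate 2 or 3 or EV vehicle replicate 1 or 3, at adjusted p up to 0.09.

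EIF2AK2, the kinase PKR that halts translation on binding double-stranded RNA, had a small and tight difference. It stood at 210, 212 and 198 CPM in TRB T3 libraries and 222, 204 and 213 CPM in TRB vehicle libraries, against 254, 263 and 267 CPM in EV T3 libraries and 261, 257 and 273 CPM in EV vehicle libraries. All TRB libraries lay below all EV libraries, with log2 -0.34 ± 0.04 with T3 (adjusted p = 1.27e-11) and -0.31 ± 0.04 with vehicle (adjusted p = 2.52e-08). TRIM25, the ubiquitin ligase of the RIG-I pathway, differed by -0.31 at both treatments. RSAD2 (viperin), an enzyme that makes a chain-terminating nucleotide, differed by -1.66 with T3 and -1.07 with vehicle. HERC5, the main ligase for ISG15, differed by -0.66 with T3 and -0.88 with vehicle, and the second value missed the threshold without TRB vehicle replicate 2 (adjusted p = 0.0821) or EV vehicle replicate 3 (adjusted p = 0.0846), and at equal depth (adjusted p = 0.0719).

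MX1, a GTPase that traps viral nucleocapsids, stood at 89.7, 99.1 and 90.4 CPM in TRB T3 libraries and 64.7, 65.1 and 65.4 CPM in TRB vehicle libraries, against 171, 251 and 226 CPM in EV T3 libraries and 196, 185 and 176 CPM in EV vehicle libraries. The line difference was 2.33-fold with T3 (log2 -1.22 ± 0.13, adjusted p = 6.29e-05) and 2.84-fold with vehicle (-1.50 ± 0.16, adjusted p = 0.00024). The T3 and vehicle libraries of TRB cells did not overlap either, and the T3 effect there passed the test (log2 0.52 ± 0.16, adjusted p = 0.0273). That call was lost without any 1 of the 6 TRB libraries, with adjusted p between 0.05 and 0.0775, and at equal depth (adjusted p = 0.0808). MX1 is thus a member of the line subset whose T3 call rests on all 6 libraries. DDX60, IFIT5, IFI35 and PARP9 shared its pattern, lower in TRB cells at both treatments and raised by T3 in TRB cells, with line differences of -0.42, -0.32, -0.28 and -0.14 on the log2 scale with T3. For IFI35 the difference with T3 missed the threshold without TRB T3 replicate 1 or EV T3 replicate 2 or 3 (adjusted p from 0.0506 to 0.0978), and that with vehicle without TRB vehicle replicate 3 (0.0519). At equal depth its T3 effect in TRB cells was 0.33, against 0.51 at full depth, and missed the threshold (adjusted p = 0.179), as did its line difference with T3 (0.0913). For PARP9 the difference with T3 missed it without TRB T3 replicate 2 (0.0511) or EV T3 replicate 3 (0.0567), or at equal depth (0.201).

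**Figure D2:**
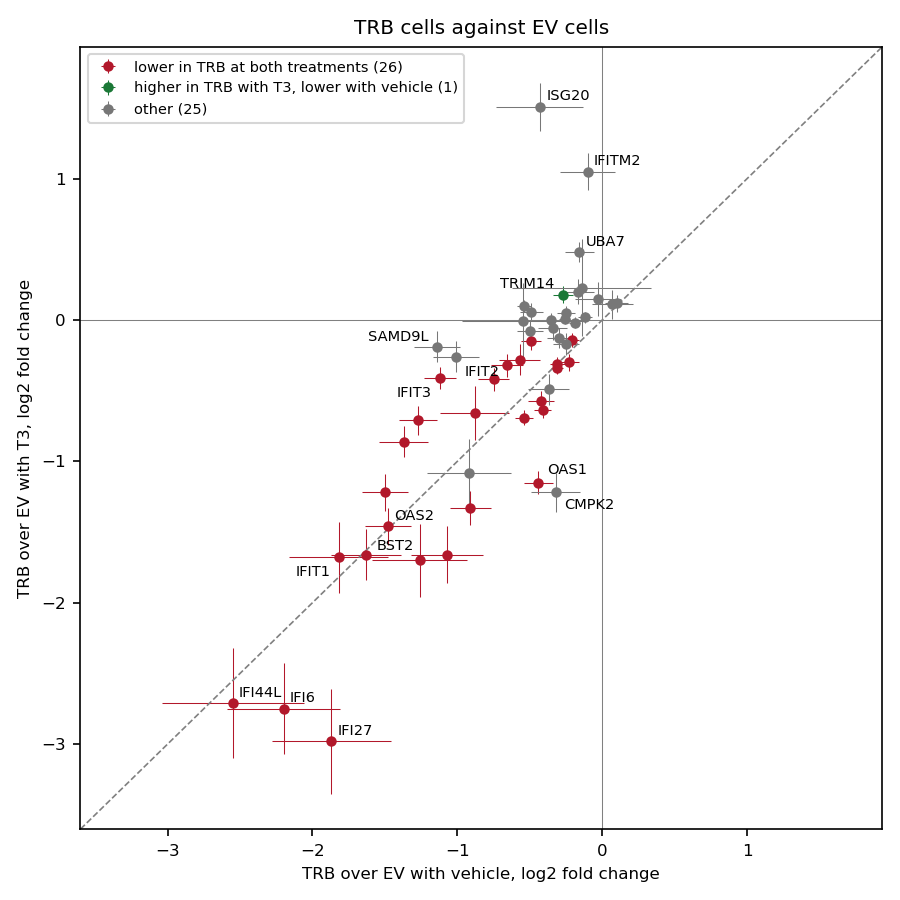
Each point is 1 of the 52 tested members, with its log2 fold change of TRB over EV cells with vehicle on the horizontal axis and with T3 on the vertical axis; bars are standard errors and the dashed line marks equal values. IFI44L, IFI6 and IFI27 lie lowest on both axes, most members sit left of 0, and ISG20, IFITM2 and UBA7 lie above 0 on the vertical axis only.

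Across the 52 members the log2 fold change of TRB over EV with T3 and that with vehicle had Pearson's r = 0.83 and Spearman's rho = 0.79, and 39 had the same sign. This is a description over members that share the 4 groups' sequencing depth, not a test.

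The members that followed the hormone in both lines were fewer. T3 raised HERC6, IFIT3, LGALS3BP, PARP14, TRIM22, UBE2L6 and XAF1 in TRB cells and in EV cells, 7 members, a pattern of 2.31% of all genes, and lowered 0 members in both lines (1.37% of all genes). IFIT3, an RNA-binding partner of IFIT1, stood at 28.5, 29.7 and 29.6 CPM in TRB T3 libraries against 14.6, 12.4 and 12.4 CPM in TRB vehicle libraries, and at 33.7, 45.3 and 37.2 CPM in EV T3 libraries against 28.9, 30.5 and 26.8 CPM in EV vehicle libraries. The T3 libraries lay above the vehicle libraries in each line. The T3 effect was 2.23-fold in TRB cells (log2 1.16 ± 0.10, adjusted p = 3.51e-15) and 1.36-fold in EV cells (0.44 ± 0.09, adjusted p = 0.000431), and the difference between these effects passed the test (0.71 ± 0.14, adjusted p = 3.65e-05). IFIT3 was also lower in TRB cells at both treatments, with log2 -0.41 ± 0.08 with T3 (adjusted p = 8.87e-06) and -1.12 ± 0.11 with vehicle (adjusted p = 9.73e-12).

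XAF1, which promotes apoptosis by antagonising XIAP, stood at 11.8, 13.6 and 11 CPM in TRB T3 libraries against 5.91, 5.26 and 5.60 CPM in TRB vehicle libraries, and at 17.6, 26.0 and 22.2 CPM in EV T3 libraries against 18.5, 13.3 and 13.0 CPM in EV vehicle libraries. In EV cells 1 vehicle library lay above the lowest T3 library, whereas in TRB cells the groups did not overlap. Its T3 effect was 1.12 ± 0.16 in TRB cells (adjusted p = 1.22e-07) and 0.61 ± 0.13 in EV cells (adjusted p = 0.00116, but 0.064 without EV vehicle replicate 3). The interaction of 0.51 ± 0.21 missed the threshold (adjusted p = 0.0768), so its T3 effect was not shown to differ between the lines. LGALS3BP, a secreted glycoprotein, stood at 438, 445 and 409 CPM in TRB T3 libraries against 317, 318 and 315 CPM in TRB vehicle libraries, and at 421, 431 and 432 CPM in EV T3 libraries against 383, 377 and 378 CPM in EV vehicle libraries. With T3 both lines reached about the same level (TRB over EV log2 0.01), and the TRB vehicle libraries were the low ones. The T3 effect was 0.44 ± 0.04 in TRB cells (adjusted p = 2.13e-16) and 0.18 ± 0.04 in EV cells (adjusted p = 0.00157).

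TRIM22, a nuclear antiviral ubiquitin ligase, stood at 48.9, 52.7 and 49.8 CPM in TRB T3 libraries against 29.7, 27.4 and 27.6 CPM in TRB vehicle libraries, and at 43.9, 50.7 and 50.6 CPM in EV T3 libraries against 40.4, 40.7 and 38.0 CPM in EV vehicle libraries. The TRB vehicle libraries again stood below all others. The T3 effect was 0.84 ± 0.07 in TRB cells (adjusted p = 1.71e-16) and 0.30 ± 0.07 in EV cells (adjusted p = 0.00563). Without EV vehicle replicate 3 the effect in EV cells missed the threshold (adjusted p = 0.13), and without EV T3 replicate 2 likewise (adjusted p = 0.0561). At equal depth it was 0.18 (adjusted p = 0.363). HERC6 stood at 11.8, 12 and 12 CPM in TRB T3 libraries against 11.2, 7.73 and 10.5 CPM in TRB vehicle libraries, and at 15.8, 17.7 and 16.8 CPM in EV T3 libraries against 12.3, 10.3 and 14.5 CPM in EV vehicle libraries. Its T3 effects, 0.30 ± 0.13 in TRB cells (adjusted p = 0.0483) and 0.42 ± 0.12 in EV cells (adjusted p = 0.028), were close to the threshold. The first rested on TRB vehicle replicate 2 (adjusted p = 0.453 without it) and was also lost without TRB T3 replicate 1, 2 or 3, at adjusted p between 0.0721 and 0.0896. The second was lost without EV vehicle replicate 1 (adjusted p = 0.0866) or 2 (0.268) or EV T3 replicate 2 (0.137), and at equal depth, where it was 0.21 (0.602).

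UBE2L6 rose by 0.52 ± 0.05 in TRB cells (adjusted p = 4.04e-13) and by only 0.17 ± 0.05 in EV cells (adjusted p = 0.0465), and the call in EV cells was lost without EV vehicle replicate 1, 2 or 3 or EV T3 replicate 2 or 3, at adjusted p from 0.0691 to 0.385, and at equal depth (0.178).

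The number of members called for T3 in EV cells depended on single libraries. It was 3 when EV vehicle replicate 3 or EV T3 replicate 2 was left out and 4 when EV vehicle replicate 2 was. Leaving out EV T3 replicate 1 gave 13, against 7 with all, and equal depth gave 3. EV T3 replicate 1 was the lowest of its group for 43 of the 52 members (82.7%), against 35.1% of all genes tested. The log2 ratio of EV T3 replicates 2 and 3 to replicate 1 had a median of 0.32 over the 26 members of the line subset, 0.14 over the other 26 tested members and 0 over all genes. MX1, at 171 CPM in replicate 1 against 251 and 226 CPM, and IFI6, at 15.7 against 32.7 and 26.5 CPM, show the gap. It touches the line comparison with T3 by narrowing it: without this library 35 members were called there, against 33 with it.

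The 16 members that T3 raised in TRB cells, with an interaction of the same sign, formed the subset whose rise with T3 was larger in the TRB line: ADAR, IFI44, IFIH1, IFIT2, IFIT3, IFITM2, ISG20, LGALS3BP, PARP12, PARP14, SAMD9L, TRIM14, TRIM22, UBA7, UBE2L6 and ZNFX1. The same pattern held for 11.6% of all genes. All of the 16 except ISG20, IFITM2 and UBA7 were also called lower in TRB cells than in EV cells with vehicle. That comparison, T3 in TRB cells and the interaction share the TRB vehicle libraries, so these calls are not independent. For 9 of the 16 members, TRB cells were lower than EV cells with vehicle and not called different with T3: ADAR, IFIT2, PARP12, SAMD9L and ZNFX1, and, raised by T3 in EV cells too, LGALS3BP, PARP14, TRIM22 and UBE2L6. A missed threshold with T3 does not show equal levels there, and the share of all genes with this narrower pattern was not counted. TRIM14, a mitochondrial adaptor of RNA sensing, was the 1 member higher in TRB cells with T3 (0.18 ± 0.06, adjusted p = 0.00879) and lower there with vehicle (-0.27 ± 0.07, adjusted p = 0.00714), as 1.45% of all genes were; 0 members showed the opposite (1.24% of all genes). Both calls were lost in some fits: that with T3 without TRB T3 replicate 1 (adjusted p = 0.0541) or 2 (0.0956) or EV T3 replicate 1 (0.0658), and that with vehicle without TRB vehicle replicate 2 (0.101) or EV vehicle replicate 3 (0.0669). At equal depth both missed the threshold, at 0.0897 with T3 and 0.103 with vehicle. TRIM14 stood at 88.5, 91.7 and 77.9 CPM in TRB T3 libraries and 61.4, 50.6 and 59.4 CPM in TRB vehicle libraries, against 72.0, 77.6 and 77.7 CPM in EV T3 libraries and 61.6, 70.4 and 71.1 CPM in EV vehicle libraries.

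PARP14, an ADP-ribosyltransferase, had the smallest p among members for T3 in TRB cells and for the interaction. It stood at 286, 279 and 278 CPM in TRB T3 libraries and 158, 167 and 165 CPM in TRB vehicle libraries, against 241, 263 and 282 CPM in EV T3 libraries and 257, 226 and 232 CPM in EV vehicle libraries. Only the TRB vehicle libraries stood apart, below all the rest. The T3 effect was 0.78 ± 0.05 in TRB cells (adjusted p = 7.88e-22) and 0.15 ± 0.04 in EV cells (adjusted p = 0.048). The call in EV cells was lost without EV vehicle replicate 2 or 3 or EV T3 replicate 2 or 3, at adjusted p up to 0.331. At equal depth the effect in EV cells was 0.10 (adjusted p = 0.307). DESeq2 (adjusted p = 0.151), RLE factors (0.0565), a fit of only the groups compared (0.107) and the replicate block (0.0554) lost this call too. The interaction was 0.63 ± 0.06 (adjusted p = 4.79e-12), and TRB cells with vehicle were lower than EV cells (-0.54 ± 0.05, adjusted p = 5.94e-13). All 4 members of the group of PARP9, PARP12, PARP14 and DTX3L, the ubiquitin ligase that works with PARP9, rose with T3 in TRB cells (22.4% of all genes), by 0.17 to 0.78 on the log2 scale.

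ISG20, IFITM2 and UBA7 were the 3 members that T3 raised in TRB cells above the EV level, with no called difference between the lines with vehicle. This pattern was not counted over all genes. ISG20, an RNA exonuclease, stood at 7.80, 8.80 and 8.73 CPM in TRB T3 libraries and 1.97, 1.57 and 2.19 CPM in TRB vehicle libraries, against 2.22, 3.65 and 2.90 CPM in EV T3 libraries and 2.41, 2.82 and 2.42 CPM in EV vehicle libraries. The TRB T3 libraries were the only high ones. Its T3 effect in TRB cells was 4.44-fold (log2 2.15 ± 0.21, adjusted p = 2.18e-14), in EV cells log2 0.20 did not pass, and the interaction of 1.95 ± 0.35 (adjusted p = 7.86e-06) was the largest of any member. With T3, TRB cells were 2.86-fold above EV cells (log2 1.51 ± 0.17, adjusted p = 8.24e-12).

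IFITM2, a paralog of IFITM1 and IFITM3, stood at 13.8, 12.2 and 12.4 CPM in TRB T3 libraries and 5.91, 4.93 and 4.92 CPM in TRB vehicle libraries, against 7.13, 6 and 5.56 CPM in EV T3 libraries and 6.02, 5.01 and 5.86 CPM in EV vehicle libraries. As for ISG20, only the TRB T3 group was high, at 2.44-fold over TRB vehicle (log2 1.29 ± 0.14, adjusted p = 6.41e-12) and 2.06-fold over EV T3 (1.05 ± 0.13, adjusted p = 1.21e-10). IFITM1 and IFITM2 overlap over 1767 bases on the same strand of chromosome 11 in GENCODE v29, which is the whole span of IFITM1. Counts may therefore have been split between them or lost, and this limit holds for the IFITM1 values above too. Reads alike in these paralogs, IFITM3 included, may also have been lost. UBA7, the activating enzyme for ISG15, stood at 38.1, 37.1 and 39.0 CPM in TRB T3 libraries and 22.0, 21.2 and 21.2 CPM in TRB vehicle libraries, against 27.8, 28.0 and 26.1 CPM in EV T3 libraries and 22.1, 23.2 and 25.5 CPM in EV vehicle libraries. Its T3 effect in TRB cells was 0.83 ± 0.08 (adjusted p = 8.92e-15), and the interaction of 0.64 ± 0.12 (adjusted p = 1.30e-05) missed the threshold at equal depth (adjusted p = 0.166).

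**Figure D3:**
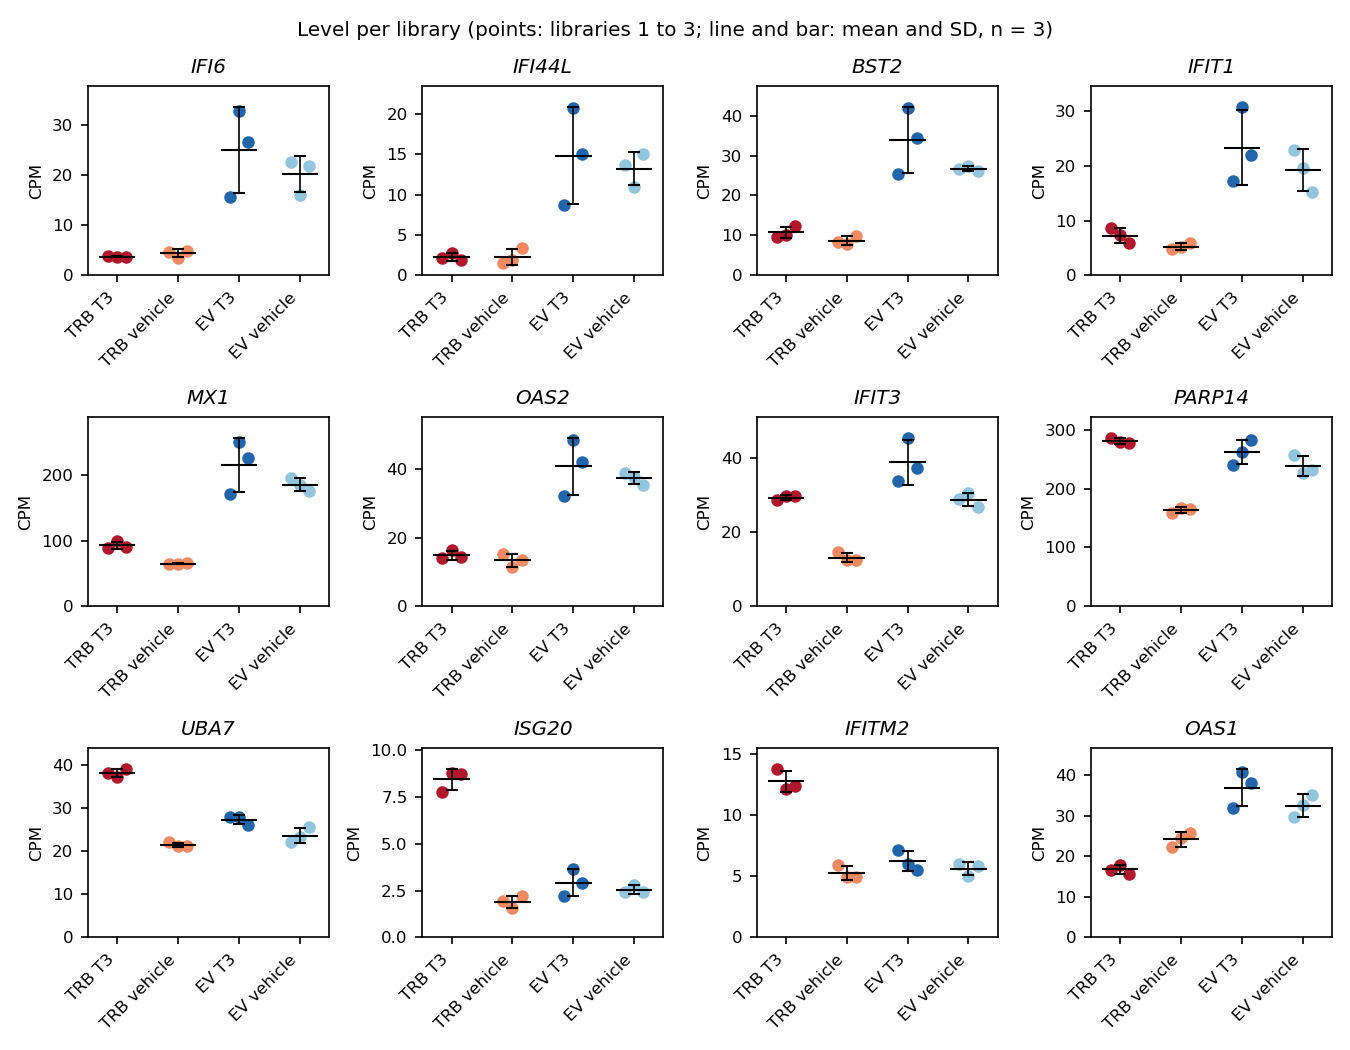
CPM of 12 members in each library, with the TRB T3, TRB vehicle, EV T3 and EV vehicle groups from left to right; points are libraries 1 to 3, and line and bar give the mean and SD (n = 3). From IFI6 to OAS2 both TRB groups lie below both EV groups, for PARP14 only TRB vehicle is low, and for ISG20 and IFITM2 only TRB T3 is high.

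RNA sensing genes leaned to both patterns. IFIH1 (MDA5, a sensor of long double-stranded RNA) rose with T3 in TRB cells by 0.49, and the line difference was -0.15 with T3 and -0.49 with vehicle, the first lost without TRB T3 replicate 1 or 2 or EV T3 replicate 2 or 3 (adjusted p up to 0.293) and at equal depth (0.16). ADAR, the enzyme that edits adenosine to inosine in double-stranded RNA, rose by 0.20 with T3 in TRB cells and was lower in TRB cells by -0.19 with vehicle, a tight difference at 537 ± 17.3 CPM in TRB T3 libraries against 466 ± 6.11 CPM in TRB vehicle libraries (SD, n = 3 each). Its interaction was lost without TRB T3 replicate 1 (adjusted p = 0.0671). DDX58 (RIG-I), the sensor of RNA with a 5′ triphosphate, was called in no comparison. Of the 7 genes of this group T3 raised 5 in TRB cells (22.4% of all genes) and 0 in EV cells (2.84%), and the interaction was positive for 3 (12.3%). With vehicle, 6 of the 7 were lower in TRB cells (7.4%).

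IFI44 was lower in TRB cells at both treatments and more responsive to T3 there. It stood at 22.1, 17.6 and 19.0 CPM in TRB T3 libraries and 9.99, 14.7 and 11.5 CPM in TRB vehicle libraries, against 27.3, 36.4 and 32.2 CPM in EV T3 libraries and 32.5, 28.0 and 28.7 CPM in EV vehicle libraries. The TRB T3 libraries lay between TRB vehicle and EV libraries without overlap. The line difference with vehicle was -1.27 ± 0.13 (adjusted p = 6.08e-09), and the interaction of 0.56 ± 0.17 (adjusted p = 0.0117) became 0.051 in adjusted p without TRB vehicle replicate 1. IFI44L lies 3650 bases from IFI44 on chromosome 1, and its T3 effect in TRB cells was 0.01 and did not pass. SAMD9L, a growth-restraining antiviral factor, rose with T3 in TRB cells by 1.19 ± 0.15 (adjusted p = 1.44e-10), whereas SAMD9, next to it on chromosome 7, was lowered by -0.20 ± 0.08 (adjusted p = 0.0422). The SAMD9 call was lost without TRB vehicle replicate 2 or 3 or TRB T3 replicate 1, 2 or 3, at adjusted p between 0.0548 and 0.328, and at equal depth, where the effect was -0.13 (0.365). SAMD9 stood at 30.8, 30.1 and 29.3 CPM in TRB T3 libraries and 31.7, 33.5 and 38.8 CPM in TRB vehicle libraries, against 37.6, 48.8 and 47.0 CPM in EV T3 libraries and 48.4, 44.8 and 46.1 CPM in EV vehicle libraries.

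**Figure D4:**
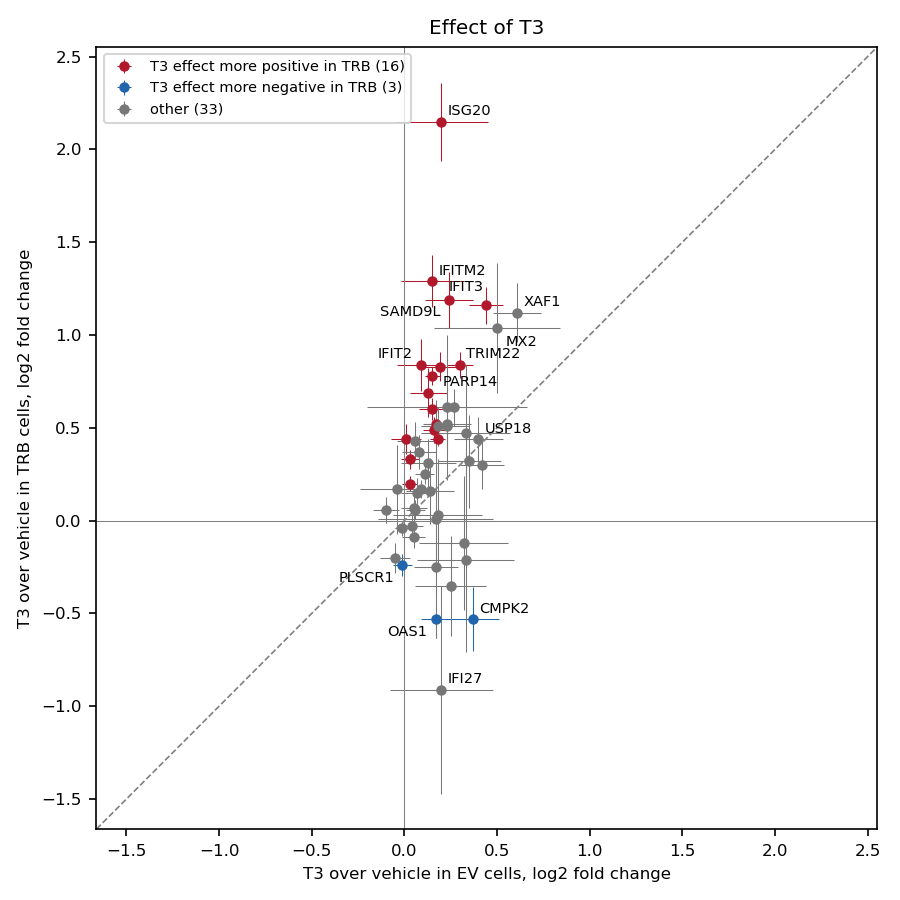
Each point is 1 of the 52 tested members, with its log2 fold change of T3 over vehicle in EV cells on the horizontal axis and in TRB cells on the vertical axis; bars are standard errors and the dashed line marks equal values. The 16 members whose T3 effect was larger in TRB cells lie above the dashed line, with ISG20 highest, and OAS1, CMPK2 and PLSCR1, the 3 with a more negative effect, lie below it.

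T3 lowered 4 members in TRB cells, and for OAS1, PLSCR1 and CMPK2 the interaction passed as well, a pattern of 11% of all genes. OAS1 stood at 16.7, 17.9 and 15.7 CPM in TRB T3 libraries and 22.2, 24.6 and 25.7 CPM in TRB vehicle libraries, against 31.9, 40.8 and 38.2 CPM in EV T3 libraries and 29.6, 32.6 and 35.2 CPM in EV vehicle libraries. The TRB T3 libraries were lowest, then TRB vehicle, and the EV groups overlapped at the top. T3 lowered OAS1 1.44-fold in TRB cells (log2 -0.53 ± 0.10, adjusted p = 4.10e-06), the T3 effect of 0.17 in EV cells did not pass, and the interaction was -0.70 ± 0.13 (adjusted p = 9.13e-06). The line difference was -1.15 ± 0.08 with T3 (adjusted p = 1.67e-19) and -0.44 ± 0.10 with vehicle (adjusted p = 0.000365).

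PLSCR1, a phospholipid scramblase that also restricts viral entry, stood at 60.3, 59.8 and 56.4 CPM in TRB T3 libraries and 66.9, 69.1 and 73.4 CPM in TRB vehicle libraries, against 86.3, 96.5 and 92.2 CPM in EV T3 libraries and 95.5, 92.5 and 90.3 CPM in EV vehicle libraries. The order of the groups was as for OAS1, with a small T3 effect in TRB cells (-0.24 ± 0.06, adjusted p = 0.000205). Its line difference with T3 was -0.64 ± 0.05 (adjusted p = 8.35e-18). Its interaction of -0.23 ± 0.08 (adjusted p = 0.018) missed the threshold without TRB vehicle replicate 3, EV vehicle replicate 3 or EV T3 replicate 2, at adjusted p from 0.0702 to 0.0776. CMPK2, a mitochondrial nucleotide kinase, stood at 6.85, 3.86 and 5.24 CPM in TRB T3 libraries and 6.44, 8.18 and 8.47 CPM in TRB vehicle libraries, against 11.4, 14.0 and 11.9 CPM in EV T3 libraries and 10.3, 9.39 and 9.43 CPM in EV vehicle libraries. T3 lowered it in TRB cells (-0.53 ± 0.17, adjusted p = 0.00637), with 1 TRB T3 library inside the TRB vehicle range, and the call was lost without TRB T3 replicate 2 (adjusted p = 0.096) and at equal depth (0.0558). The interaction was -0.90 ± 0.22 (adjusted p = 0.000985), and with T3 the TRB cells were 2.33-fold below EV cells (log2 -1.22 ± 0.14, adjusted p = 1.73e-11). CMPK2 and RSAD2 overlap over 830 bases on opposite strands, and as the sources used here do not state whether strand was used in counting, reads there cannot be assigned to either.

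Members outside these subsets were mixed. ISG15, the ubiquitin-like modifier itself, stood at 18.9, 16.3 and 14.4 CPM in TRB T3 libraries and 20.5, 16.2 and 11.9 CPM in TRB vehicle libraries, against 25.1, 45.3 and 33.7 CPM in EV T3 libraries and 33.9, 30.5 and 28.9 CPM in EV vehicle libraries. All TRB libraries lay below all EV libraries, yet only the difference with T3 passed (-1.08 ± 0.24, adjusted p = 0.00615), that with vehicle being -0.92 ± 0.29 (adjusted p = 0.0772). Of the 6 genes of the ISG15 system T3 raised 4 in TRB cells (22.4% of all genes): UBA7, UBE2L6 (the conjugating enzyme), HERC6 and USP18, the protease that removes ISG15 and dampens interferon signalling. ISG15 and HERC5 had T3 effects of 0.03 and 0.17 in TRB cells, and neither passed. DTX3L, MX2, SP110 and USP18 had their single call for T3 in TRB cells, and as their interactions did not pass, a difference in that effect between the lines was not shown. USP18 had T3 effects of 0.44 in TRB cells (adjusted p = 0.0013, but 0.0705 at equal depth) and 0.40 in EV cells (adjusted p = 0.0579). The call for MX2 was lost without TRB vehicle replicate 1 (adjusted p = 0.102) or TRB T3 replicate 3 (0.0638). SP100 was called only as lower in TRB cells with vehicle (-0.30, and adjusted p = 0.0573 without EV vehicle replicate 1), and DDX60L was lower there (-0.34, and adjusted p of 0.0667 and 0.0677 without EV vehicle replicate 1 and 3, and 0.0713 at equal depth) and raised by T3 in TRB cells. TRIM5 overlaps TRIM22 over 47401 bases on the opposite strand, and PARP9 overlaps DTX3L over 340 bases, so the same limit on counting holds for them.

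Per kilobase of exon, IFITM3, LGALS3BP, ADAR and UBE2L6 were the 4 most abundant members in all 4 groups, at 124, 120, 55.4 and 50.1 CPM per kilobase in TRB T3 cells and 127, 88.4, 48.1 and 34.8 in TRB vehicle cells, against 153, 119, 56.2 and 49.9 in EV T3 cells and 150, 106, 55 and 44.5 in EV vehicle cells. These 4 had modest differences. Members with large line differences ranked below them, but not all were scarce in EV cells. In EV T3 cells BST2, IFI6 and MX1 ranked 6, 7 and 8, at 30.3, 28.9 and 25.1 CPM per kilobase. ISG15 stood at 17.6 CPM per kilobase in TRB T3 cells and 17.2 in TRB vehicle cells, against 36.9 in EV T3 cells and 33.1 in EV vehicle cells.

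The genes that act ahead of the members did not move as a block. Of 31 tested genes of a list of interferon ligands, receptors, kinases, transcription factors, sensors and brakes (USP18 aside), T3 raised 8 in TRB cells (22.4% of all genes) and lowered 10 (21.9%), and raised 2 (2.84%) and lowered 1 (1.7%) in EV cells. With T3, 6 were higher (21%) and 12 lower (19.7%) in TRB cells than in EV cells, and with vehicle 0 were higher (7.86%) and 5 lower (7.4%). The 7 interferon ligand genes IFNA1, IFNB1, IFNE, IFNK, IFNL1, IFNL2 and IFNL3 had 49 counts together out of 110638513 in all 12 libraries, 38 of them from IFNE and 1 from IFNB1. No library held more than 7 counts of any of these 7, and none was tested. IFNA1 was the 1 interferon alpha gene of the list.

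IRF1 was the upstream gene that changed most with T3 in TRB cells. It stood at 135, 135 and 131 CPM in TRB T3 libraries and 34.6, 32.0 and 34.3 CPM in TRB vehicle libraries, against 78.7, 81.3 and 77.6 CPM in EV T3 libraries and 54.1, 59.3 and 54.0 CPM in EV vehicle libraries. The 4 groups did not overlap, and TRB cells were the lowest group with vehicle and the highest with T3. T3 raised it by 1.99 ± 0.06 in TRB cells (adjusted p = 2.18e-42) and 0.50 ± 0.06 in EV cells (adjusted p = 9.50e-10), with an interaction of 1.49 ± 0.08 (adjusted p = 1.66e-24). TLR3, an endosomal sensor of double-stranded RNA, averaged 16.4 ± 0.691 CPM in TRB T3 libraries against 7.35 ± 2.72 CPM in TRB vehicle libraries (SD, n = 3 each), with an interaction of 1.19 ± 0.22 (adjusted p = 1.28e-05).

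STAT2, of the complex ISGF3, was called in no comparison. Its partner IRF9, at 3.11 ± 0.759 CPM in TRB T3 libraries and 3.10 ± 0.891 CPM in TRB vehicle libraries, against 4.60 ± 0.563 CPM in EV T3 libraries and 5.32 ± 0.614 CPM in EV vehicle libraries (SD, n = 3 each), was lower in TRB cells at both treatments, like the members of the line subset. TMEM173 (STING), the adaptor of cytosolic DNA sensing, was lower in TRB cells by -0.70 with T3 and -0.20 with vehicle and was lowered by T3 there (-0.55 ± 0.06, adjusted p = 8.40e-13). SOCS3, a brake on cytokine receptors, was lowered by T3 in TRB cells (-0.91 ± 0.13, adjusted p = 7.98e-09).

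Of 11 tested genes of a list leaning to interferon gamma, T3 raised 9 in TRB cells (22.4% of all genes) and 5 in EV cells (2.84%) and lowered 0 in either. Their interaction was positive for 8 (12.3%) and negative for 0 (11.6%). With T3, 8 were higher (21%) and 2 lower (19.7%) in TRB cells than in EV cells, whereas with vehicle 1 was higher (7.86%) and 7 were lower (7.4%). GBP4, a guanylate binding protein, averaged 11.4 ± 0.975 CPM in TRB T3 libraries against 1.52 ± 0.226 CPM in TRB vehicle libraries (SD, n = 3 each), a T3 effect of 2.91 ± 0.20 (adjusted p = 1.50e-20). In EV cells its T3 effect of 0.33 did not pass. The lists were chosen with earlier results in view, so their counts are descriptions.

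The 7 epithelial markers were abundant in every library, with summed levels of 7260 to 7700 CPM in TRB T3, 8560 to 8770 CPM in TRB vehicle, 9760 to 10200 CPM in EV T3 and 10200 to 10600 CPM in EV vehicle libraries. EGFR made up most of this sum, at 4270 CPM in TRB T3 and 4420 CPM in TRB vehicle cells. Within it T3 lowered KRT5 in TRB cells (mean 224 CPM in TRB T3 against 900 CPM in TRB vehicle, log2 -2.01 ± 0.05) and KRT17 (122 CPM in TRB T3 against 373 CPM in TRB vehicle, -1.61 ± 0.05), and raised CDH1 (0.34 ± 0.04). The plasmacytoid dendritic cell markers LILRA4 and CLEC4C had 0 counts in every library. Summed levels of 5 leukocyte markers were 185 to 197 CPM in TRB T3, 18.0 to 22.3 CPM in TRB vehicle, 50.5 to 53.2 CPM in EV T3 and 28.4 to 33.2 CPM in EV vehicle libraries. Nearly all of this was CD14, at 186 ± 6.47 CPM in TRB T3 libraries against 19.6 ± 2.10 CPM in TRB vehicle libraries (SD, n = 3 each). The sum of 4 fibroblast markers was 19.7 to 21.4 CPM in TRB T3 and 16.6 to 17.9 CPM in TRB vehicle libraries, against 14.6 to 15.5 CPM in EV T3 and 15.8 to 16.4 CPM in EV vehicle libraries. The sum of 3 endothelial markers was 5.94 to 6.47 CPM in TRB T3 and 1.71 to 2.13 CPM in TRB vehicle libraries, against 2.09 to 3.57 CPM in EV T3 and 1.93 to 2.04 CPM in EV vehicle libraries. CDH5 accounted for most of the T3 difference in TRB cells, at 3.68 ± 0.311 CPM in TRB T3 libraries against 0.427 ± 0.225 CPM in TRB vehicle libraries (SD, n = 3 each). The part of these markers in the results was not tested, and in bulk RNA fewer cells expressing a member and less of its RNA per cell cannot be told apart.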

How the data were processed

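Libraries were made from total RNA with the NEBNext Ultra II RNA kit, per the labels' protocols. The submitters' processing notes name build hg38 and, as tools, STAR 2.7, HTSeq 0.10, CASAVA 1.7 and DESeq2. Strand use in counting is not given in the sources used. The authors deposited whole-number read counts per gene for each of the 12 libraries, and these were used. Their table of normalized values was not used. Lines that name no gene held 31.87% to 39.24% of each library's total and were left out.

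CPM are scaled by TMM factors. Tests used edgeR 4.0.16 (with limma 3.58.1, R 4.3.3) and its quasi-likelihood test with robust dispersions. The 4 group means were fitted together, which leaves 8 residual degrees of freedom, after filterByExpr with a minimum of 10 counts and a total of 15. Benjamini-Hochberg adjustment ran over all 14549 genes tested, and each SE was computed by dividing the log2 fold change by the square root of F. Coordinates, exon lengths and GC content come from GENCODE v29 on GRCh38, and promoter windows from RefSeq GRCh38.p14. The fit was tested on simulated counts with known changes.

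The members and the other gene lists were chosen with earlier results of these data known. Values per library are given, in each comparison, for the members with the 5 smallest p called in each direction, and for those with the largest change of each subset; IFI6, MX1, ISG15 and IFI44L were added to show their groups after their values were seen. Alternatives were DESeq2 1.42.0, RLE factors, CPM above 1 in 3 libraries, no filter, a fit of only the groups compared, a block for the replicate number, counts thinned to the smallest total, and each library left out in turn. The removal of each library's GC trend was chosen after seeing the data.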

Additional observations from a re-analysis of the deposited data

Results flagged for a closer look

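The T3 effect differed between TRB and EV cells for 19 members by edgeR's interaction test, and each is given here as the T3 effect in TRB cells minus that in EV cells on the log2 scale. It was more positive in TRB cells for ISG20 (1.95), IFITM2 (1.14), SAMD9L (0.95), IFIT2 (0.74), IFIT3 (0.71), UBA7 (0.64), PARP14 (0.63) and IFI44 (0.56). It was also more positive for TRIM22 (0.54), TRIM14 (0.45), PARP12 (0.42), UBE2L6 (0.35), IFIH1 (0.34), ZNFX1 (0.30), LGALS3BP (0.27) and ADAR (0.17). It was more negative in TRB cells for PLSCR1 (-0.23), OAS1 (-0.70) and CMPK2 (-0.90). The same test bears on the line difference, which was more positive with T3 than with vehicle for the first 16 and more negative for these 3. Among all genes tested 12.3% had a positive and 11.6% a negative interaction.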

How the results depend on the processing

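For T3 in TRB cells, T3 in EV cells, TRB against EV with T3, TRB against EV with vehicle and the interaction, 32, 7, 33, 38 and 19 members were called. Leaving out 1 library at a time gave 28 to 30, 3 to 13, 30 to 35, 34 to 39 and 18 to 22. For T3 in EV cells DESeq2 called 4 and counts thinned to equal depth 3. With the replicate number as a block the 5 counts were 32, 7, 34, 38 and 19. Same-numbered libraries of different groups had correlations of -0.12 to 0.08 over 18 pairs, with 0 over 0.1. With 3 libraries per group such correlations cannot settle whether the number pairs libraries, and the labels do not say. Every other alternative kept each of the 5 counts within 1.5 times, and the interaction was not fitted on compared groups alone, since it needs all 4. No named member reversed its sign among its calls; 102 of 1901 repeats of a call missed the threshold. Kept under every alternative were 25 of 32, 2 of 7, 28 of 33, 31 of 38 and 15 of 19 calls. DESeq2 lost HERC6 and SAMD9 for T3 in TRB cells and UBE2L6, HERC6 and PARP14 for T3 in EV cells. It also lost IFIH1 and IFI35 for TRB against EV with T3 and PLSCR1 for the interaction. Without a filter, MX1, HERC6 and SAMD9 were lost for T3 in TRB cells and ADAR for the interaction. The GC fit lost SAMD9 for T3 in TRB cells, UBE2L6 for T3 in EV cells and IFITM3 for TRB against EV with vehicle. GC values were available for 86.6% of the genes tested. Members of few counts, such as IFI27, RTP4, MX2 and OASL, are limited by depth.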
